A study of Mus musculus with 9 samples.

Results

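The transcription factors that set and hold the hepatocyte gene programme were followed across the livers of STAM mice and lean control mice. The 9 genes were Hnf4a, Foxa1, Foxa2, Foxa3, Cebpa, Nr1i2, Nr1i3, Prox1 and Onecut1. They were chosen by name, with earlier results of these data known. Every non-control array probe whose RefSeq accession belongs to one of these symbols was taken. All 9 of 9 genes had a probe, with 11 probes in all out of 55681 on the array, since Foxa2 and Nr1i3 each had 2. All 11 probes were well above background on all 9 arrays, so each of the 9 genes was among the 13386 genes that could be tested out of 20972 named on the array.

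STAM mice are male C57BL/6J mice that received streptozotocin, a toxin of the insulin-secreting cells of the pancreas, soon after birth and a high-fat diet from weaning age on, and they go on from fatty liver disease to liver cancer. STAM-NON mice had this treatment and no insulin. STAM-INS mice had it together with insulin glargine, a long-acting insulin, injected under the skin every day until the end. Normal mice were lean male mice on ordinary chow, with neither streptozotocin nor the high-fat diet, so a difference from Normal holds the toxin, the diet and the disease together. All mice were 20 weeks old, with 3 mice and 3 Agilent 1-colour arrays in each of the 3 groups. The arrays were made from total RNA of whole liver, and the sources used here do not say whether a piece held tumour. In such bulk samples, fewer cells of a type and less RNA per cell cannot be told apart.

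Hepatocytes keep their identity through a small network of DNA-binding proteins that bind one another's genes as well as a large set of other liver genes. HNF4α, the product of Hnf4a, is a nuclear receptor that drives genes of lipoproteins, clotting factors and metabolism. The forkhead proteins FOXA1, FOXA2 and FOXA3 open compacted chromatin at liver enhancers and so are called pioneer factors, C/EBPα drives genes of the urea cycle, glycogen storage and gluconeogenesis, and HNF6, the product of Onecut1, takes part in the development of both hepatocytes and bile ducts. PROX1 is a homeobox protein needed for the outgrowth of the embryonic liver. The last 2 are sensors of foreign chemicals and bile acids: CAR, encoded by Nr1i3, and PXR, encoded by Nr1i2, both bind DNA with the partner RXR and switch on drug-metabolising cytochromes P450, conjugating enzymes and transporters.

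The start regions of the 3 members that separated the groups most (Nr1i3, Nr1i2 and Onecut1, by the moderated F value of limma) are printed here with that of Hnf4a, which holds a match to the HNF6 motif. Each is the 250 bases before the transcription start in the RefSeq annotation of GRCm38.p6, written from 5′ to 3′ on the gene's own strand, with motif matches in capitals.
Nr1i3, chr1:171213720-171213969, plus strand: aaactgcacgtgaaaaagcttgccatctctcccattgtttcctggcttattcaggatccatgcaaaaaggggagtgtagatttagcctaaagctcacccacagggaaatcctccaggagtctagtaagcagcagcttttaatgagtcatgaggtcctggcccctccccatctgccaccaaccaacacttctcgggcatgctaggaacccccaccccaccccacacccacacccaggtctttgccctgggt
Nr1i2, chr16:38294825-38295074, minus strand: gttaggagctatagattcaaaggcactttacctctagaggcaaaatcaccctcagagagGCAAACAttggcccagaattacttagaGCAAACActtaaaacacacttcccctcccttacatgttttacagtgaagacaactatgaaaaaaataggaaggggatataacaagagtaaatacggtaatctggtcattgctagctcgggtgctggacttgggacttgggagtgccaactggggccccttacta
Onecut1, chr9:74861671-74861920, plus strand: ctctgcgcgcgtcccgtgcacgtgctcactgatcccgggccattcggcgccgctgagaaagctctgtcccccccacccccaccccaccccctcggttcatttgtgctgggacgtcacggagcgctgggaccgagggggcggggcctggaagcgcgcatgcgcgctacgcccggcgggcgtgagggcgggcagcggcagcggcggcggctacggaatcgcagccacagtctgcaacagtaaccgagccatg
Hnf4a, chr2:163506607-163506856, plus strand: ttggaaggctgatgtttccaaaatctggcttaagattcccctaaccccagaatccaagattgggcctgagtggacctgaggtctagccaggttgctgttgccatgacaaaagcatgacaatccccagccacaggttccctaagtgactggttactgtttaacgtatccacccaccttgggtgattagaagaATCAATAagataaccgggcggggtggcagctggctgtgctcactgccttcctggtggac
The Hnf4a stretch belongs to the more distal of 2 annotated start regions, the one known mainly from the pancreas and the fetal liver.

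The motifs were searched on both strands in windows of 300 bases, 250 before and 50 after each start, of which the 9 genes had 13. The 2 capital stretches of Nr1i2 are the forkhead motif TGTTTGC read on the other strand, at positions -191 to -185 and -164 to -158 from the start. One Prox1 window held the same motif, at -120 to -114, and 5.07% of all 32851 windows of this length held it at least once. The related forkhead motif TGTTTAC, held by 3.65% of all windows, was found in Foxa1, at -141 to -135. The HNF6 motif ATCAATA, held by 2.05% of all windows, was found in the distal Hnf4a window at -59 to -53 and in 1 of 3 Foxa2 windows at -214 to -208. None of the 13 windows held the HNF4 motifs CAAAGTCCA and CAAAGTNCA, which overlap (0.475% and 1.41% of all windows), the C/EBP motif TTGCNNAA (10.8%), the HNF1 motif GTTAATNAT (0.801%) or the nuclear receptor motif AGGTCA (16.3%). The windows of Nr1i3 and Onecut1 held no match to any of these motifs. A match is a run of letters and no evidence of binding, and a window without one says nothing of the factor.

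Values are given as the centred log2 signal, which is the log2 processed signal of a probe minus the 75th percentile of all spots of the same array. A value of 0 is the brightness of that percentile, and a difference of 1 between groups is a doubling. Differences are relative to the other probes, and values of different probes cannot be set against each other, because each probe binds with its own strength. Groups were compared with limma, whose p-values were adjusted after Benjamini and Hochberg across the 26277 probes tested, and a gene was called when its adjusted p was below 0.05. Of the 9 arrays, between 46.2% and 65% of spots were well above background, and arrays of a group correlated with r of 0.979 to 0.991 over the tested probes.

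Nr1i3, the gene of CAR, was the only member called lower than Normal in both STAM groups. Nr1i3 had centred log2 signals of 4.48, 4.28 and 4.42 in the 3 Normal livers. Those of the STAM-NON livers were 3.45, 3.86 and 3.45, and those of the STAM-INS livers 3.08, 3.21 and 3.71. Every STAM liver was below every Normal liver, while the STAM-NON and STAM-INS livers overlapped. Nr1i3 fell by 0.81 from Normal to STAM-NON (SE 0.19, limma adjusted p 0.0279), which is 1.75-fold. From Normal to STAM-INS it fell by 1.06 (SE 0.19, limma adjusted p 0.0119), which is 2.09-fold. The step from STAM-NON to STAM-INS was -0.25 (95% interval -0.68 to 0.17, limma adjusted p 0.741), and was not called. The order of the group means was therefore Normal, STAM-NON and STAM-INS, of which the last 2 did not differ beyond their spread.

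The second Nr1i3 probe gave 3.39, 3.15 and 3.28 in Normal, 2.15, 2.69 and 2.36 in STAM-NON, and 2.01, 2.12 and 2.75 in STAM-INS. It too separated Normal from both STAM groups without overlap. Its differences from Normal were -0.87 in STAM-NON (limma adjusted p 0.0329) and -0.98 in STAM-INS (limma adjusted p 0.0245). These 2 probes read the same RNA samples and are not independent replicates.

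RNA of Nr1i2, the gene of PXR, was called lower in the insulin-treated livers than in the Normal livers. Nr1i2 had signals of 3.86, 3.86 and 4.10 in Normal and of 3.94, 3.92 and 3.57 in STAM-NON, 2 groups that overlapped. In STAM-INS it had 3.21, 3.38 and 3.42, below all 6 other livers. The fall from Normal to STAM-INS was called, as Nr1i2 fell by 0.61 (SE 0.14, limma adjusted p 0.0288), which is 1.52-fold. Between STAM-NON and STAM-INS the difference was -0.48 (95% interval -0.80 to -0.15), and its limma p was 0.00898 before and 0.473 after adjustment, so it was not called. Between Normal and STAM-NON it was -0.13 (95% interval -0.45 to 0.19, limma adjusted p 0.531). STAM-INS thus had the lowest mean, called apart from Normal but not from STAM-NON. Normal and STAM-NON did not differ beyond their spread.

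**Figure D1:**
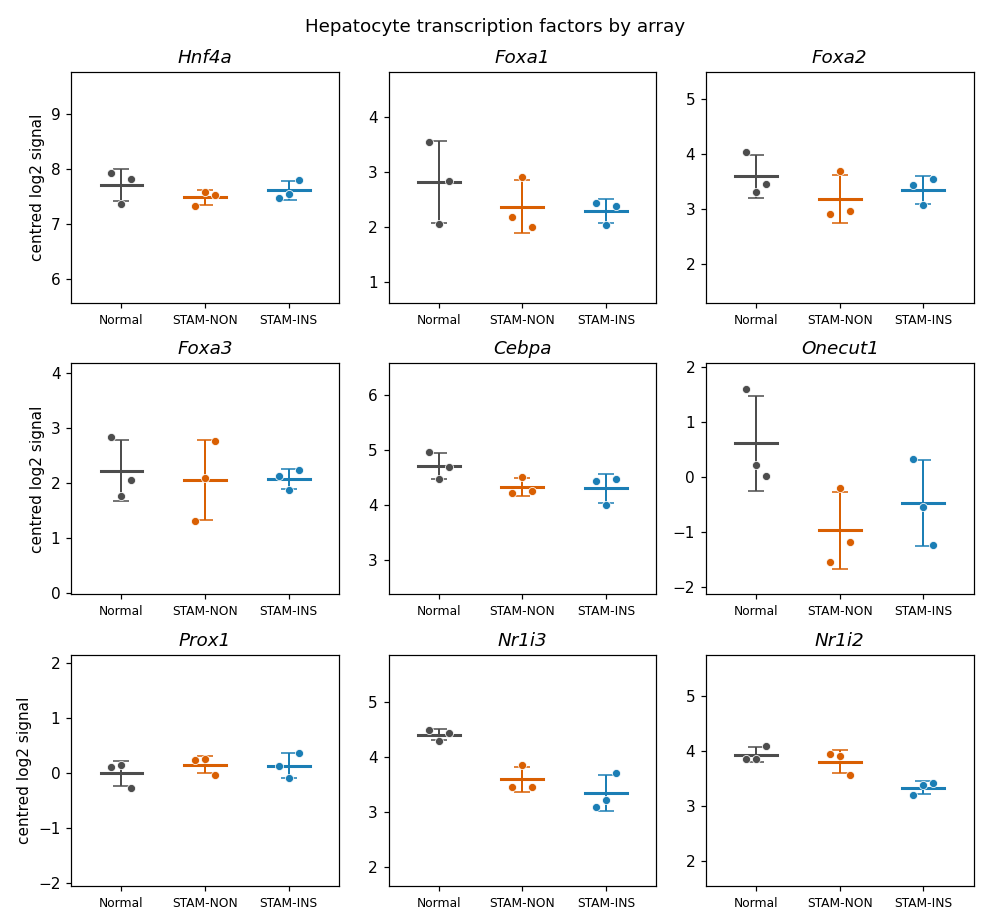
Centred log2 signal (y axis, the same number of units in each panel) of the probe used for each of the 9 factors in every array, with the group mean (thick bar) and SD (thin bar, n = 3). Nr1i3 shows both STAM groups below all Normal livers, Nr1i2 shows STAM-INS below the other groups, and Onecut1 spreads widely in all 3 groups.

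Onecut1, the gene of HNF6, had the largest difference of all members and also the widest spread. Its signals were 1.61, 0.22 and 0.02 in Normal, -1.54, -0.19 and -1.18 in STAM-NON, and 0.33, -0.54 and -1.23 in STAM-INS. STAM-NON lay below Normal without overlap, whereas STAM-INS overlapped both. The difference between STAM-NON and Normal was -1.58 (SE 0.55, 95% interval -2.84 to -0.33), with a limma p of 0.0190 before and 0.0794 after adjustment, and it was not called. Between STAM-INS and Normal it was -1.09 (limma adjusted p 0.203), and between STAM-INS and STAM-NON 0.49 (95% interval -0.76 to 1.74). The high Normal value was that of replicate 1, and without this array the difference between STAM-NON and Normal was -1.09. It passed the threshold without STAM-NON replicate 2, the highest STAM-NON liver, where it was -1.97 (limma adjusted p 0.0454).

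Cebpa stood at 4.96, 4.48 and 4.69 in Normal, at 4.21, 4.51 and 4.25 in STAM-NON and at 4.44, 3.99 and 4.47 in STAM-INS. The 3 STAM-INS livers were below the 3 Normal livers, though the gap between 4.47 and 4.48 was narrow, and 1 STAM-NON liver was above the lowest Normal liver. The differences from Normal were -0.39 in STAM-NON (95% interval -0.80 to 0.02, limma adjusted p 0.160) and -0.41 in STAM-INS (95% interval -0.82 to 0.00, limma adjusted p 0.155). Neither was called. STAM-INS and STAM-NON differed by -0.02 (95% interval -0.44 to 0.39).

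Hnf4a, a known activator of the CAR and PXR genes, was at a similar level in the 3 groups. Its signals were 7.92, 7.36 and 7.82 in Normal, 7.33, 7.58 and 7.53 in STAM-NON, and 7.48, 7.55 and 7.80 in STAM-INS, so that the groups overlapped. It differed by -0.22 between STAM-NON and Normal (95% interval -0.61 to 0.17), by -0.09 between STAM-INS and Normal (95% interval -0.49 to 0.30) and by 0.13 between STAM-INS and STAM-NON (95% interval -0.26 to 0.52). None of these was called, with limma adjusted p of 0.373, 0.729 and 0.868.

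The 3 forkhead genes were not called in any comparison. Foxa1 had 3.55, 2.06 and 2.84 in Normal, 2.18, 2.92 and 2.01 in STAM-NON, and 2.44, 2.04 and 2.39 in STAM-INS. The Normal livers alone spanned more than the group means did, and the differences from Normal were -0.45 in STAM-NON and -0.52 in STAM-INS (limma adjusted p 0.414 and 0.359). Foxa2, known for its part in the fasting liver, had 4.04, 3.31 and 3.45 in Normal, 2.92, 3.69 and 2.96 in STAM-NON, and 3.44, 3.07 and 3.55 in STAM-INS. Its differences from Normal were -0.41 and -0.25 (limma adjusted p 0.294 and 0.544), and those of its second probe were -0.30 and -0.12. Foxa3, the forkhead gene most restricted to endoderm, had 2.84, 1.77 and 2.06 in Normal, 1.31, 2.09 and 2.76 in STAM-NON, and 2.12, 1.87 and 2.23 in STAM-INS. Its differences from Normal were -0.17 and -0.15, with 95% intervals of -1.04 to 0.70 and -1.02 to 0.72.

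Prox1, at 0.10, 0.13 and -0.27 in Normal, was the one member whose STAM means both lay above the Normal mean. With arrays centred on the median its STAM-INS mean lay below Normal, and Hnf4a also had both STAM means above Normal with quantile normalisation and spike-in centring, as did Foxa3 without Normal replicate 1. It had 0.24, 0.24 and -0.03 in STAM-NON and 0.13, -0.10 and 0.36 in STAM-INS. The 3 groups overlapped, and the differences from Normal were 0.16 and 0.14 (limma adjusted p 0.515 and 0.589).

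**Figure D2:**
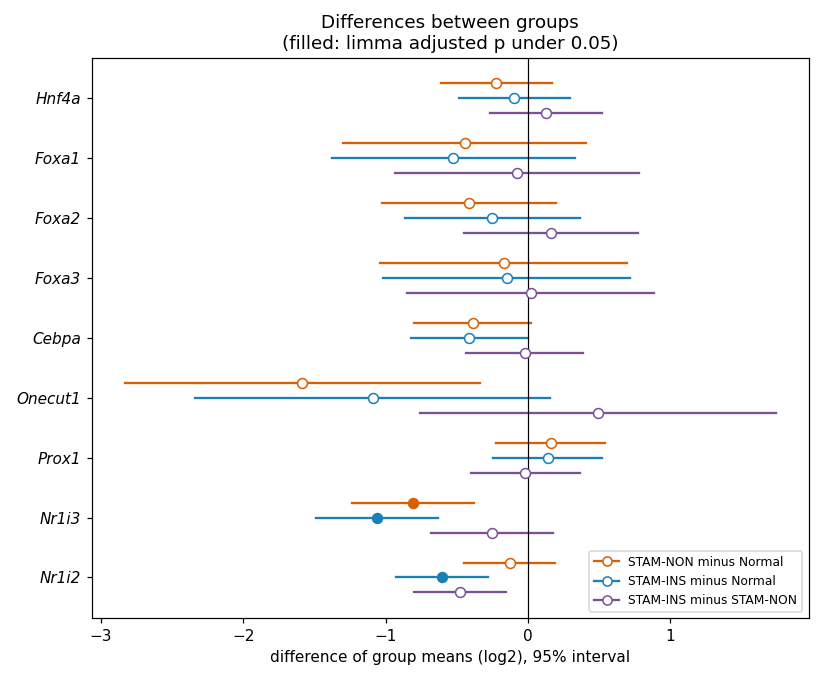
Difference of group means on the log2 scale (x axis) with its 95% interval from limma for each factor and comparison, filled where the adjusted p was below 0.05. The filled points are Nr1i3 in both comparisons with Normal (-0.81 and -1.06) and Nr1i2 in STAM-INS against Normal (-0.61).

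Counted together, 1 of the 9 factors was called between STAM-NON and Normal, and it was lower. Among all 13386 tested genes 16.8% were called in this comparison, and 8.93% were called lower. Between STAM-INS and Normal 2 of 9 were called, both lower, where 13.6% of all genes were called and 7.49% called lower. Between STAM-INS and STAM-NON 0 of 9 were called by limma, with 0.0822% of all genes called, and 1 of 9 had an unadjusted p below 0.05. The 3 arrays of each group did not overlap for 2 of 9 factors between STAM-NON and Normal (40.9% of all genes), for 3 of 9 when STAM-INS was set against Normal (44.9% of all genes) and for 1 of 9 when it was set against STAM-NON (12.7% of all genes). The shares of factors called or not overlapping were close to or below those of all genes in the comparison of STAM-NON with Normal, and 9 genes are too few to set any of these shares apart from the background.

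By direction, 8 of the 9 factors were below 0 in STAM-NON against Normal, with a median of -0.39, where 60.8% of all tested genes were below 0 and their median was -0.11. With arrays centred on spike-ins, Foxa3, Hnf4a and Nr1i2 were above 0 as well. In STAM-INS against Normal it was again 8 of 9, with a median of -0.41 beside 57% and -0.07 for all genes. Both comparisons use the same Normal arrays. In STAM-INS against STAM-NON 5 of 9 were below 0, with a median of -0.02 beside 44.7% and 0.03 for all genes. Normal replicate 1 was the highest Normal array for 7 of 9 factors and for 39.1% of all genes, and without it the median difference from Normal was -0.17 in STAM-NON, with 7 of 9 factors below 0, and -0.16 in STAM-INS, with 6 of 9 below 0. STAM-NON replicate 2 was the highest STAM-NON array for 7 of 9 factors and for 47.5% of all genes.

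Most pairs of factors had signals that rose and fell together over the arrays. Of the 36 pairs, 30 had a Pearson r above 0 over the 9 arrays (median 0.48), and 31 had one above 0 after each group's mean was taken away (median 0.47). After the group means were removed, the pairs of Foxa1 with Foxa2, Foxa2 with Cebpa and Foxa1 with Cebpa had r of 0.91, 0.90 and 0.86. Nr1i3 and Nr1i2 had an r of 0.76 over the arrays (Spearman's rho 0.63) and 0.48 within groups. The lowest value within groups was -0.59, between Foxa3 and Nr1i2. These values describe 9 arrays that share their scaling and are given without a test. The same values were not computed for pairs of other genes, so they do not show that the factors vary together more than other genes. STAM-INS replicate 3, for example, was the highest STAM-INS array for 7 of 9 factors and for 42.4% of all genes.

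**Figure D3:**
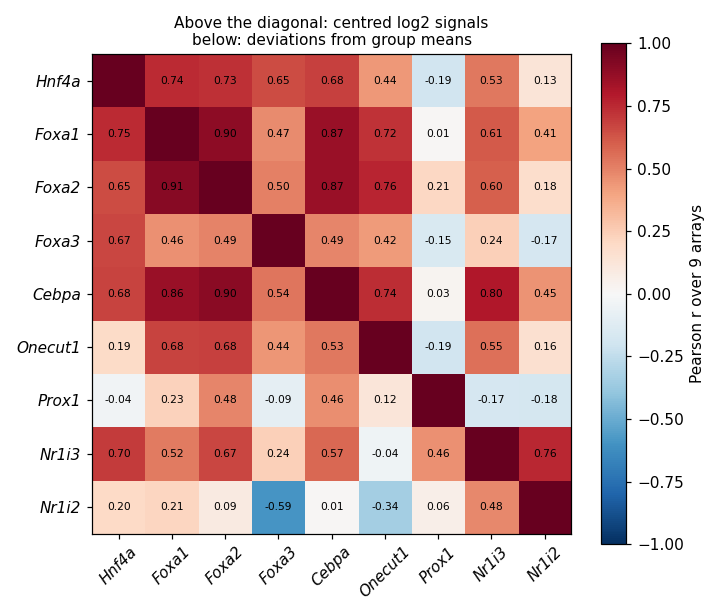
Pearson r between the factors over the 9 arrays (colour scale and printed values), from the centred log2 signals above the diagonal and from deviations from the group means below it. Foxa1, Foxa2 and Cebpa form the block with the highest values on both sides, and Prox1 is near 0 with most factors above the diagonal.

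Over the 9 arrays, the genes whose signal was most like that of Nr1i3 among 13385 others were Mbnl1 (r 0.99), Zfp609, Tcp1, Gna12 and Rapgef4 (r 0.98 each). Their Spearman's rho with Nr1i3 lay between 0.92 and 0.98. The genes least like it were Mpeg1, a macrophage gene, and Grk5 (r -0.98 each). Within groups, r lay between 0.88 and 0.98 for the 5 most like Nr1i3, and was -0.85 for Mpeg1 and -0.94 for Grk5. All are extremes of 13385 values, and r over the 9 arrays includes the split between STAM and Normal. They are given without a test. Mpeg1 was higher by 1.31 in STAM-NON and by 1.69 in STAM-INS than in Normal (limma adjusted p 0.0142 and 0.00479). Mbnl1, a splicing regulator, was lower by smaller amounts, -0.27 and -0.34, and was called in neither comparison.

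The known target genes of CAR and PXR were then read from a list of 22, of which 21 were tested and Ugt1a1 was not matched to a probe. Of these 21, 9 were lower and 0 higher in STAM-NON than in Normal, and again 9 were lower and 0 higher in STAM-INS. Among all tested genes 8.93% were called lower in STAM-NON and 7.49% in STAM-INS. This list, like those below, was chosen with earlier results of these data known, so these shares do not test it. The list's median difference was -0.66 and -1.10, beside -0.11 and -0.07 for all genes. The mean of the targets' differences from Normal was 0.22, -0.11 and -0.90 in the STAM-NON livers, which overlapped the Normal livers (-0.11 to 0.09). In the STAM-INS livers this mean ran from -0.71 to -0.46. Ces2a, a carboxylesterase, fell by 2.72 in STAM-NON, from 7.96 ± 0.11 to 5.24 ± 0.59 (SD, n = 3 each; limma adjusted p 0.00486), and fell by 2.37 in STAM-INS. Cyp3a11, the main drug-metabolising P450 that PXR induces in mice, stood at 9.39 ± 0.13 in Normal, 7.34 ± 0.52 in STAM-NON and 6.95 ± 0.69 in STAM-INS (SD, n = 3 each). It fell by 2.06 and by 2.44, with limma adjusted p of 0.0142 and 0.00633. Cyp2c37 and Cyp2c50, P450s that CAR induces, fell by 1.97 and by 1.88 in STAM-NON. Slco1a4, a bile acid and drug transporter, fell by 2.17 in STAM-INS (limma adjusted p 0.0425). Probes of the Cyp2c and Cyp3a genes may bind RNA of near-identical family members, so these values are uncertain as values of single genes. The count of 9 in STAM-NON became 5, 5 and 3 without Normal replicate 1, 2 or 3, 2 with no filter on dim probes and 0 with the row on the slide as a fixed block. The count of 9 in STAM-INS became 5 without STAM-INS replicate 2, Normal replicate 1 or Normal replicate 3, and 3 with no filter on dim probes.

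Por, which hands electrons to all microsomal P450s, was the target that differed most between the 2 STAM groups among those called against Normal. It stood at 7.37 ± 0.14 in Normal, 6.71 ± 0.31 in STAM-NON and 5.40 ± 0.22 in STAM-INS (SD, n = 3 each). It fell by 1.97 from Normal to STAM-INS (limma adjusted p 0.00185) and by 0.66 from Normal to STAM-NON (limma adjusted p 0.0456). The step between the STAM groups, -1.31, had a limma adjusted p of 0.0725 and was not called. None of the 21 targets was called in that comparison by limma, and 3 had an unadjusted p below 0.05.

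Some targets lay on the other side. Above 0 in STAM-NON against Normal were 5 of the 21 genes, with differences of 2.01 for Cyp2b10, the classical target of CAR, 3.35 for Cyp2b9, 4.62 for Cyp2b13, 2.89 for Akr1b7 and 0.57 for Gadd45b. None of these 5 was called, with limma adjusted p of 0.200, 0.0613, 0.0510, 0.0565 and 0.305. Cyp2b9 and Cyp2b13 were well above background on 2 of the 3 Normal arrays, and the 3 Cyp2b genes are close copies whose probes may share RNA. In STAM-INS against Normal 6 of the 21 were above 0, these 5 and Cyp3a13, with differences of 0.12 to 3.09, and none was called by limma.

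The targets of C/EBPα (11 tested) held 4 genes lower and 0 higher in each comparison with Normal. Of all tested genes 8.93% were called lower in STAM-NON and 7.49% in STAM-INS. In STAM-NON these were Otc and Cps1, enzymes of the urea cycle, at -1.11 and -0.67, the growth factor Igf1 at -0.64, and Arg1, which ends the urea cycle, at -0.42 (limma adjusted p 0.0316, 0.0297, 0.0165 and 0.0403). In STAM-INS they were Gys2, the liver glycogen synthase, at -1.21, Cps1 at -0.67, Igf1 at -0.47 and Arg1 at -0.46 (limma adjusted p 0.0106, 0.0309, 0.0372 and 0.0328). The list's median differences were -0.42 and -0.47, beside -0.11 and -0.07 for all genes. Its lowest values, -4.68 in STAM-NON and -4.66 in STAM-INS, were not called. The count in STAM-NON became 0 without any 1 of the Normal arrays and 1 without STAM-NON replicate 1 or 3, and that in STAM-INS became 1 without any 1 of the Normal arrays or without STAM-INS replicate 2 or 3, and 2 without STAM-INS replicate 1. The targets of HNF4α (19 tested, among them Nr1i2 and Nr1i3 themselves) had 2 lower and 0 higher in STAM-NON, which were Otc and Nr1i3. In STAM-INS 2 were lower, Nr1i3 and Nr1i2, and 1 was higher, Cyp8b1, an enzyme of bile acid synthesis, by 1.74 (limma adjusted p 0.0169). The 2 lower genes of 19 were near the share of all genes called lower in each comparison. The median differences of this list were -0.22 and -0.14, beside -0.11 and -0.07 for all genes. Without any 1 of the Normal arrays, or without STAM-NON replicate 1 or 3, 0 genes of this list were lower in STAM-NON, and 4 were without STAM-NON replicate 2. No gene of these 2 lists was called by limma between the STAM groups.

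**Figure D4:**
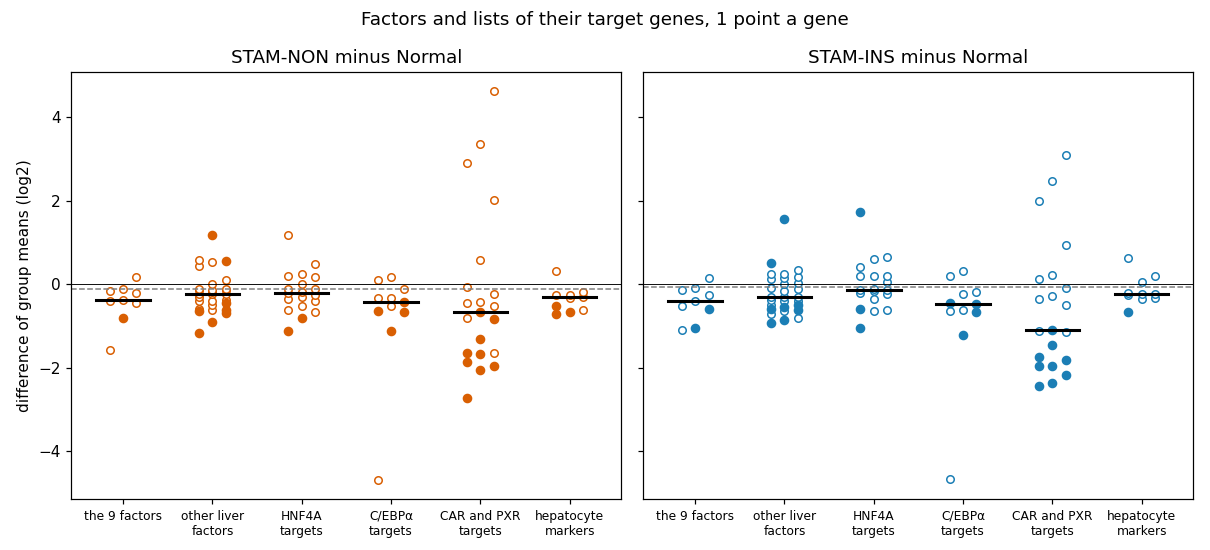
Difference from Normal on the log2 scale (y axis) for each gene of the factors, of other liver transcription factors, of 3 target lists and of hepatocyte markers, in STAM-NON (left) and STAM-INS (right). Filled points were called, black bars are list medians, and the dashed line is the median of all tested genes. CAR and PXR targets have the lowest medians, -0.66 and -1.10, and in STAM-NON 4 points at 2.01 or above that were not called.

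Among 29 tested further transcription factors of the liver, 2 were higher and 6 lower in each comparison with Normal, and 0 were called between the STAM groups. Of all tested genes 16.8% were called in STAM-NON against Normal and 13.6% in STAM-INS against Normal, with 8.93% and 7.49% called lower. The 6 lower in STAM-NON became 1 without any 1 of the Normal arrays or without STAM-NON replicate 1 or 3, and the 6 lower in STAM-INS became 2, 0 and 0 without Normal replicate 1, 2 or 3 and 2 and 1 without STAM-INS replicate 1 or 2. The 3 with the largest called differences in STAM-NON were Atf5 (1.19), a stress-response factor, Mlxipl (-1.18), which encodes the carbohydrate sensor ChREBP, and Hhex (-0.92), a homeobox gene of early liver. The 4 largest in STAM-INS were Atf5 (1.56), Klf15 (-0.92), a regulator of amino acid breakdown, Ppara (-0.86), the fatty acid sensor PPARα, and Mlxipl (-0.62). The second Mlxipl probe gave smaller differences of -0.30 and -0.25 and was called in neither comparison (limma adjusted p 0.107 and 0.172). Rxra, which encodes the partner of CAR and PXR, was at -0.61 in STAM-NON (limma adjusted p 0.0219) and at -0.31 in STAM-INS (0.135) by the brighter of 2 probes, and at 0.01 and -0.13 by the other, which was called in neither, so its direction in STAM-NON is not settled. Nr1h4, the gene of the bile acid receptor FXR, fell by 0.46 in STAM-NON and by 0.51 in STAM-INS (limma adjusted p 0.0453 and 0.0364).

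The RNA came from whole liver, so markers of the cells it can hold were read beside the factors. For all tested genes the shares called were 16.8% in STAM-NON and 13.6% in STAM-INS against Normal. Of all genes, 8.93% and 7.49% were called lower. Of 10 hepatocyte markers, all tested, 3 were lower in STAM-NON (Asgr2, Cps1 and Asgr1, at -0.72, -0.67 and -0.52) and 1 in STAM-INS (Cps1). The mean of their differences from Normal ran from -0.62 to -0.19 over the STAM-NON livers, from -0.20 to -0.08 over STAM-INS and from -0.03 to 0.03 over Normal. Of 7 tested macrophage markers, 4 were higher in STAM-NON (Gpnmb, Trem2, Cd5l and Clec4f, by 4.38, 2.93, 1.33 and 0.97) and 3 in STAM-INS (Trem2, Cd5l and Clec4f), and the same mean ran from 1.23 to 2.33, from 1.25 to 1.96 and from -0.32 to 0.16 in the 3 groups in that order. Of 5 tested bile duct and progenitor markers, 3 were higher in STAM-NON (Krt7, Spp1 and Sox9) and 1 in STAM-INS (Sox9), with means of 0.59 to 1.35, 0.75 to 1.09 and -0.45 to 0.47. These marker levels moved with the comparisons with Normal, and their part in the falls of Nr1i3 and Nr1i2 was not tested. Counts in STAM-NON depended on single arrays. Without any 1 of the Normal arrays, or without STAM-NON replicate 1 or 3, 0 hepatocyte markers were lower, and without STAM-NON replicate 2 there were 6. Macrophage markers fell to 1 without any 1 of the Normal arrays or STAM-NON replicate 1 and to 2 without STAM-NON replicate 3, and bile duct markers to 0 without STAM-NON replicate 1 or Normal replicate 3 and to 1 without STAM-NON replicate 3 or Normal replicate 1. In STAM-INS the macrophage count of 3 became 0 without STAM-INS replicate 2 and 1 without STAM-INS replicate 3, STAM-NON replicate 1 or 3, or any 1 of the Normal arrays. The hepatocyte count of 1 became 0 without STAM-INS replicate 2 or 3 or any 1 of the Normal arrays, and the bile duct count of 1 became 3 without STAM-NON replicate 1. Of 7 tested endothelial markers Lyve1 alone was higher, in STAM-NON (by 3.01), and of 6 tested lymphocyte and neutrophil markers Ptprc alone, in both STAM groups. Of 7 tumour and fetal markers, H19 was not matched to a probe, and Gpc3, Igf2 and Bex1 did not pass the filter on dim probes. Gpc3 was well above background on 2 STAM-NON, 1 STAM-INS and 0 Normal arrays. A gene dim in Normal passes the filter only through the STAM groups, so values above Normal are favoured in this list. Of the 3 tested, Afp and Scd2 were higher in both STAM groups and Tff3 in STAM-INS. Without any 1 of the Normal arrays 0 endothelial or lymphocyte markers were called, and tumour and fetal markers numbered 0 in STAM-NON and 0 or 1 in STAM-INS. Endothelial and lymphocyte calls in STAM-NON were also 0 without STAM-NON replicate 1 or 3, lymphocyte calls in STAM-INS were 0 without any 1 of the STAM-INS arrays, and tumour and fetal calls were 0 in STAM-NON without its replicate 3 and 0 in STAM-INS without its replicate 2. By limma, 0 of 8 stellate cell and fibroblast markers and 0 of 1 tested adipose marker were called in any comparison, though 4 of the 8 had an unadjusted p below 0.05 in STAM-NON against Normal, all at higher values. Of 7 pancreas markers, Prss1, Pnlip, Cpa1 and Gcg were not well above background on any array, Cela2a was on 1 STAM-NON, 2 STAM-INS and 0 Normal arrays, and Cel and Ins2 were tested and called in no comparison by limma.

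RNA of clock genes differed between the STAM groups, with 1 of 12 tested clock genes higher (Arntl, by 2.69) and 4 lower (Ciart, Per3, Dbp and Tef, by -3.99, -3.22, -2.82 and -1.37) in STAM-INS. Of all tested genes 0.0822% were called in this comparison. The clock list was chosen with earlier results of these data known, so this share does not test it. The 4 lower became 1 without STAM-NON replicate 1 or 2, and 2 without STAM-INS replicate 3 or any 1 of the Normal arrays, and the 1 higher became 0 without STAM-NON replicate 1 or 2 or any 1 of the STAM-INS arrays. Against Normal 2 clock genes were higher and 8 lower in STAM-INS, and 0 were called in STAM-NON by limma (4 had an unadjusted p below 0.05). Of all tested genes 13.6% were called in STAM-INS against Normal and 16.8% in STAM-NON against Normal. Dbp and Tef encode PAR bZIP proteins, which are known to act on the Nr1i3 and Por genes. The time of day at which livers were taken is not given in the sources used here, and the part of the clock in the values of Nr1i3, Nr1i2 and Por was not tested.

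All 6 STAM arrays lay on one slide and the 3 Normal arrays on another, so slide and group cannot be told apart in either comparison with Normal. The calls were also sensitive to the processing. Nr1i3 remained below 0 in STAM-NON against Normal under all 23 alternatives and was called under 14. Among the alternatives that did not call it were arrays centred on spike-ins (adjusted p 0.115 by limma), no filter on dim probes (0.121), the row on the slide as a fixed block (0.545), and leaving out STAM-NON replicate 1 or 3 (0.0805 and 0.0745) or any of Normal replicates 1, 2 and 3 (0.0818, 0.0663 and 0.0834). In STAM-INS against Normal it was called under 22 of 23, the exception being no filter on dim probes (limma adjusted p 0.0664). Nr1i2 in STAM-INS against Normal was called under 11 of 23, and lost its call when any 1 of the 6 arrays of these groups was left out, with limma adjusted p between 0.0589 and 0.100. Some alternatives, such as the filters and leaving out an array of the other group, cannot change the difference between 2 groups. Its sign under these was fixed. In STAM-INS against Normal, the row as a fixed block and leaving out STAM-INS replicate 1 gave the same estimate, so they are not separate checks. The row as a fixed block cannot decide about STAM-NON against Normal, since STAM-NON lay in row 1 and Normal in row 2. Relative to the median of all tested probes, which no centring of arrays can move, Nr1i3 was at -0.67 and Nr1i2 at 0.01 in STAM-NON against Normal, and they were at -0.97 and -0.51 in STAM-INS against Normal. Within row 2 of the slides, which held STAM-INS replicates 2 and 3 and all Normal arrays, STAM-INS was lower than Normal by a mean difference of -0.94 for Nr1i3 and -0.54 for Nr1i2. Within row 1, STAM-INS replicate 1 differed from the STAM-NON mean by -0.50 for Nr1i3 and -0.61 for Nr1i2.

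**Figure D5:**
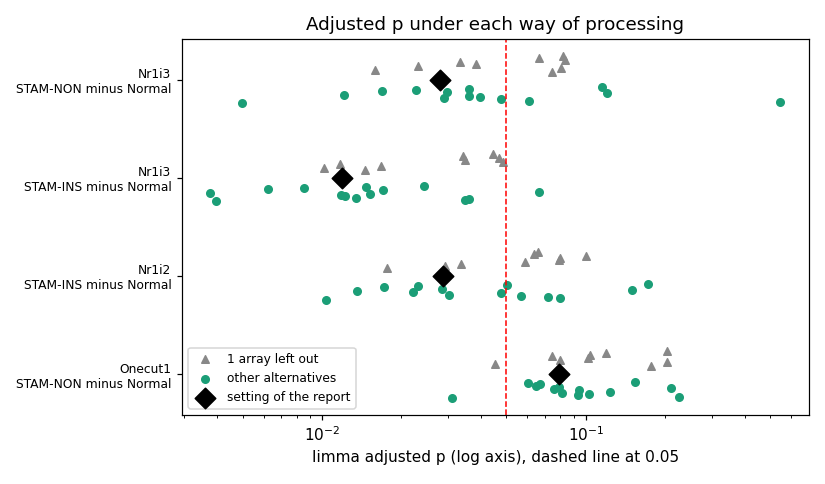
Adjusted p from limma (x axis, log scale) of the 4 member differences nearest to a call, under the setting of the report (diamond), with 1 array left out (triangles) and under the other alternatives (circles). The dashed line marks 0.05. Nr1i3 in STAM-INS against Normal stays left of the line in 22 of 23 alternatives, and Onecut1 passes it in 2.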

How the data were processed

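The authors deposited scanner output of Agilent Feature Extraction 11.5.1.1 for 9 arrays (SurePrint G3 Mouse), whose processed spot intensities are linear and background-subtracted by the scanner software and, per the file headers, not normalised against other probes. The labels and the study's methods name different RNA extraction kits. From the processed intensity, log2 was taken and the 75th percentile of all non-control spots subtracted per array. Spots with an outlier flag (161 to 217 an array) were left out, and spots of a probe were averaged. Probes were named by RefSeq accession, without version, from a table of GRCm38.p6, which named 27656 of 55681 probes. Testing required a share of 0.5 or more of a probe's spots above background (the scanner software's flag) in all 3 arrays of some group. Of a gene's tested probes, the one with the highest mean was used. limma 3.58.1 in R 4.3.3 was fitted to all 9 arrays (6 residual degrees of freedom), two-sided. The study's methods give 3 mice a group, so p-values measure the spread between these mice. The number of arrays limits the precision.

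The 9 factors and all gene lists were chosen with earlier results of these data known. Named genes are the 9 factors, the 4 largest called differences of each list in a comparison, genes behind counts of 5 or fewer, and the 5 genes most and 2 least like Nr1i3. Rxra and Nr1h4 were singled out after their values were seen. A gene that this rule would name is not reported here. The normexp alternative used median spot intensities, and mean intensities were not used here. The code was tested on simulated data. Alternatives covered scaling, filter, model, blocks and each array left out.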

Additional observations from a re-analysis of the deposited data

Results flagged for a closer look

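ERCC control spots entered no comparison. Of 2772 such spots an array, 8.91%, 15.5% and 18.1% gave a signal well above background in STAM-NON replicates 1 and 3 and STAM-INS replicate 1, against at most 6.6% in a Normal liver. These arrays also had the highest shares of all spots well above background (59.3%, 63.1% and 65%). On them Onecut1 stood at -1.54, -1.18 and 0.33 and Nr1i3 at 3.45, 3.45 and 3.08, and a link to the factors was not tested.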

How the results depend on the processing

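In all, 23 alternatives were run, of which the row on the slide as a fixed block and the percentile over unflagged spots were chosen after seeing the data. Between STAM-INS and STAM-NON 0 factors were called under every one. Between STAM-NON and Normal the count of 1 became 0 with arrays centred on E1A spike-ins, with no filter on dim probes and with the row as a fixed block, and 2 (Nr1i3 and Onecut1) with the row as a random block, whose estimated correlation was -0.15. With 1 array left out it ran from 0 to 2. Between STAM-INS and Normal the count of 2 became 1 (Nr1i3) with quantile normalisation, with arrays centred on the median or on spike-ins and with the row as a fixed block, and 0 with no filter on dim probes, where 55655 probes were adjusted over. With 1 array left out it ran from 1 to 2. The slide itself could not be used as a block against Normal. The row as a fixed block cannot decide about STAM-NON against Normal, since STAM-NON lay in row 1 and Normal in row 2.

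Arrays that share a replicate number did not deviate together (r of deviations from -0.29 to 0.15 over 9 pairs, 1 of them above 0.1), so the numbers do not pair the mice. With the replicate block, 0 factors were called in STAM-NON against Normal (Nr1i3 had a limma adjusted p of 0.0608) and 1 in STAM-INS against Normal (Nr1i3), and calls over all probes went from 4220 to 2016, from 3650 to 1872 and, between the STAM groups, from 24 to 6.

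Differences that were never called changed sign in places. Centring shifted all probes alike: relative to their median, Hnf4a, Foxa3 and Nr1i2 stayed at -0.09, -0.04 and 0.01 in STAM-NON against Normal. The cause of sign changes under other alternatives was not tested. With spike-in centring, Foxa3, Hnf4a and Nr1i2 became 0.10, 0.051 and 0.14 in STAM-NON against Normal, Hnf4a became 0.026 in STAM-INS against Normal, and Foxa3 and Hnf4a became -0.13 and -0.025 between the STAM groups. With quantile normalisation Hnf4a and Nr1i2 became 0.056 and 0.086 in STAM-NON against Normal, Hnf4a 0.12 in STAM-INS against Normal and Foxa3 -0.018 between the STAM groups. With the percentile over probes detected on all arrays, Foxa3 and Nr1i2 became 0.0046 and 0.045 in STAM-NON against Normal, Hnf4a 0.032 in STAM-INS against Normal and Foxa3 -0.027 between the STAM groups. Normexp gave Foxa3 -0.016 between the STAM groups, and median centring gave Prox1 -0.032 in STAM-INS against Normal. The row as a fixed block gave Nr1i2 0.067 in STAM-NON against Normal and Cebpa, Foxa1 and Hnf4a 0.11, 0.072 and -0.0033 between the STAM groups. With 1 array left out, Cebpa was at -0.11 to 0.13 and Foxa1 at -0.26 to 0.19 between the STAM groups. Foxa3 was at -0.35 to 0.37 there and Prox1 at -0.13 to 0.095. In STAM-INS against Normal Foxa3 was at -0.38 to 0.16 and Hnf4a at -0.26 to 0.014. Foxa3 was at -0.52 to 0.20 in STAM-NON against Normal.

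Scaling moved the median of all tested probes in STAM-NON against Normal from -0.13 to 0.14 (spike-ins), 0.04 (percentile over detected probes) or -0.29 (median), and calls from 1655 higher and 2565 lower to 2443 and 438, 2145 and 990, or 1086 and 2050. Quantile normalisation gave 1539 and 1425. In STAM-INS against Normal 1356 higher and 2294 lower became 1276 and 697 (spike-ins), 1705 and 1277 (detected probes) or 801 and 2111 (median). The CAR and PXR targets called lower in STAM-NON against Normal numbered from 0 (row as a fixed block) to 12, 3 without Normal replicate 3, and in STAM-INS against Normal from 3 (no filter on dim probes) to 12. Calls over all probes in STAM-NON against Normal (4220) were 250 with no filter on dim probes, 2180 with only the 6 arrays of both groups, 9499 and 15 with the row as a random and a fixed block, and 874 to 6184 with 1 array left out. In STAM-INS against Normal (3650) they were 572 with no filter, 6815 and 2157 with the row as a random and a fixed block, and 1172 to 4494 with 1 array left out. Between the STAM groups (24) they were 6 to 57 over all alternatives.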
